A study of Homo sapiens with 10 samples.

Results

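The genes described here are the translation factors and cytoplasmic poly(A)-binding proteins (PABPCs) of cells derived from the human embryonic stem cell (hESC) line H9, with and without overexpression of DAZL. They were chosen by gene name, as the entries of the deposited table whose name starts with EIF1 to EIF6, EEF1, EEF2 or PABPC and does not end in P and digits. The rule gave 79 of 65003 entries, under 75 gene names. Names ending in P and digits numbered 154 among 233 matches. They are mostly pseudogenes, but the rule also dropped the 3 genes of the eIF4E-binding proteins, which are treated below with related genes. Of the 79 entries, 74 were above 0 TPM (a unit of transcript abundance scaled by length and by the library total) in at least 1 library and 69 had a mean of at least 1 TPM over the 4 libraries and were tested. Of the 5 entries at 0 in every library, 4 were second identifiers of a gene already counted.

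The RNA sequencing compared 2 control libraries with 2 libraries of cells overexpressing DAZL (oeDAZL). Human primordial germ cell-like cells (hPGCLCs) are cells differentiated in culture from hESCs to resemble the first cells of the germline, and DAZL is an RNA-binding protein of germ cells. The deposited labels call the oeDAZL cells hPGCLCs of H9 with genotype and treatment oeDAZL. They call the control cells wild type H9 cells that differentiated spontaneously, whereas the design text names them as WT PGCLCs, so a difference in culture and the effect of DAZL cannot be told apart. The study's methods differentiate hESCs with BMP4 and BMP8a and deliver DAZL by lentivirus, joined to GFP through a P2A peptide, so the DAZL measured includes viral transcripts. For the miRNA libraries the study's methods give the control cells a lentivirus with GFP alone. The labels quoted above name no virus for the control RNA, so whether the virus also differed between the groups is not settled. All 4 libraries come from 1 hESC line. Nothing in the sources says that the RNA replicates came from separate cultures, so the P-values measure only the spread between these libraries, which may be technical.

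DAZL itself had 0 and 0.0333 TPM in control and 102 and 101 TPM in oeDAZL, in the direction of the labels. Of 13 markers of primordial germ cells, 8 were at 1 TPM or more in every library, whereas CD38, DND1 and NANOG stayed under 1 TPM in all 4. The highest of this list were TFAP2C, at 44.3 to 53.9 TPM, ALPL, at 44.01 to 52.65 TPM, and ITGA6, at 36.1 to 46.1 TPM. POU5F1 followed, at 13.6 and 10.6 TPM in control and 22.4 and 20.4 TPM in oeDAZL. SOX17, which defines human primordial germ cells, lay between 2.52 and 3.35 TPM, and the germ cell helicase DDX4 was at 0. All 8 markers of amnion and trophoblast were at 1 TPM or more, with a summed level of 3311 to 3543 TPM, and 6 of 8 markers of mesoderm and mesenchyme were, with a summed level of 2303 and 2199 TPM in control and 1955 and 1982 TPM in oeDAZL. The summed level of the germ cell markers was 167.7 to 176.8 TPM. It lay below that of the amnion, mesoderm, muscle (501.2 to 754.5 TPM) and neural lists (230.7 to 282.5 TPM) and above that of the endoderm list (59.56 to 111.2 TPM). In the muscle list 2 of 8 markers were at 1 TPM or more in every library, and ACTC1 alone was at 472 to 739 TPM. In the neural list 5 of 8 were, and TUBB3 alone was at 179 to 249 TPM. A single gene thus made up most of each of these sums. At an unadjusted limma P of at most 0.05, which 5.02% of all tested genes met as higher and 15.2% as lower in oeDAZL, 1 marker was higher and 4 lower of 8 tested in the amnion and trophoblast list, 1 higher and 3 lower of 7 in the mesoderm list, 0 and 2 of 6 in the neural list, 0 and 1 of 6 in the endoderm list, 0 and 1 of 2 in the muscle list, and 1 and 0 of 10 in the germ cell list. HAND1 is a marker in both the amnion and the mesoderm list, at 958 and 1042 TPM in control and 1250 and 1247 TPM in oeDAZL. The counts and sums of these lists therefore share a gene. The part of the markers in the results was not tested.

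Translation of a capped mRNA starts when eIF4E of the eIF4F complex binds the cap, the scaffold eIF4G joins it to the helicase eIF4A, and eIF3 bridges the complex to the small ribosomal subunit that carries eIF2 and the initiator tRNA. PABPC coats the poly(A) tail and also binds eIF4G, which brings the ends of the mRNA together. DAZL is known to bind PABPC and to stimulate translation of its target mRNAs in germ cells. Elongation is then carried by eEF1A, which delivers aminoacyl-tRNA, its exchange factor eEF1B, and eEF2, which moves the ribosome along the mRNA. Many mRNAs of the translation machinery begin with a C followed by a run of pyrimidines, the 5′ terminal oligopyrimidine (TOP) motif, through which mTOR and LARP1 control their translation.

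Because this motif is the sequence feature for which translation factor mRNAs are known, their annotated starts were read first. The RefSeq promoter table (GRCh38.p14) held 53 of the 69 tested gene names. Of these, 13 (24.53%) had an annotated start at a C followed by at least 4 bases of C or T, read on the coding strand only, against 787 of 10816 tested genes of any kind in the table (7.276%) and 1404 of 27305 genes in all (5.142%). The 13 genes were EEF1A1, EEF1B2, EEF2, EIF2A, EIF2D, EIF2S3, EIF2S3B, EIF3D, EIF3F, EIF3K, EIF3M, EIF4A2 and EIF4B. The starts of 8 of them are shown with 10 bases before and 20 bases from the start. Capitals mark the C at the start and the pyrimidines that follow it.
EEF1A1 (chr6:73521013-73521042, minus strand): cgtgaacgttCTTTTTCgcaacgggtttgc
EEF2 (chr19:3985444-3985473, minus strand): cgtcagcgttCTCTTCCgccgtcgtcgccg
EEF1B2 (chr2:206159885-206159914, plus strand): ctcttcgggtCCTTTTTCCTCTCTTCagcg
EIF4B (chr12:53006446-53006475, plus strand): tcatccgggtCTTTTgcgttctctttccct
EIF3F (chr11:7987327-7987356, plus strand): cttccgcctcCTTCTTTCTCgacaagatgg
EIF2A (chr3:150546777-150546806, plus strand): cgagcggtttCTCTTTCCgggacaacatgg
EIF2S3 (chrX:24054946-24054975, plus strand): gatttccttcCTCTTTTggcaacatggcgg
EIF2S3B (chr12:10505880-10505909, plus strand): gactttcttcCTCTTTTggcaacatggcgg
The tracts ran from 5 bases in EIF4B to 16 bases in EEF1B2. EIF2S3 and its copy EIF2S3B share theirs. A gene was counted if any of its annotated starts had such a tract. EEF1B2 and EIF2S3B each also have an annotated start without one, which is not shown. For comparison, the annotated starts of 3 genes whose levels are followed below, without such a tract, are shown in lower case.
PABPC1L (chr20:44910050-44910079, plus strand): cgcgcccaggaaggagggcttccgcccggg
EIF4E (chr4:98929114-98929143, minus strand): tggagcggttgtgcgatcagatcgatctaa
EIF3B (chr7:2354817-2354846, plus strand): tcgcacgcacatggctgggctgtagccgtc
The genes PABPC1 and PABPC4 were not in the table. A start in this table is an annotated position and was not measured in these cells.

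The 69 tested genes were abundant and their levels moved little between libraries. TPM is scaled per length, so levels can be compared between genes. Their median level was 88.14 TPM over the 4 libraries against 15.6 TPM for all 16687 tested genes, and 33 of them exceeded 100 TPM. Without matching for level, the ratio of the highest to the lowest of the 4 libraries had a median of 1.149 for these genes and of 1.284 for all tested genes. Their summed level was 24081 and 23183 TPM in control and 23784 and 23989 TPM in oeDAZL, that is 2.32% to 2.41% of each library. The groups overlapped in this sum. The 7 genes of the elongation factors held 50.44% of it, and EEF1A1 alone held 30.93%. The eIF4 group held 16.78%, eIF3 13.67%, the PABPCs 6.818%, the start site factors 6.146% and eIF5A 4.2%.

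In the comparison of oeDAZL with control, none of the 69 genes met both thresholds that the study sets for a differentially expressed gene, a 2-fold difference and a P of at most 0.05. With limma on TPM, 0.689% of all tested genes met them (0.126% higher and 0.563% lower). The study applied these thresholds with DESeq2 on counts and reported more such genes. At an unadjusted limma P of at most 0.05 without a fold threshold, 3 were higher in oeDAZL, namely EIF2A, EIF3B and EIF5A, and 2 were lower, namely PABPC1L and PABPC4. These 5 are 7.246% of the genes, whereas the background is 20.2% of all tested genes (5.02% higher and 15.2% lower). After Benjamini-Hochberg adjustment over all tested genes in limma none was under 0.05, with a smallest adjusted p of 0.104 for PABPC1L, against 0.0599% of all tested genes. With either oeDAZL library left out, PABPC1L alone of the 5 kept a P of at most 0.05, and without control replicate 2 adjusted p-values under 0.05 were given to EIF3L, EIF5A and PABPC1L as to 673 of all genes. In bulk RNA fewer cells of a type and less RNA per cell cannot be told apart, and this holds for each value below.

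Log2 fold changes, computed on log2(TPM + 1), ranged from -0.44 to 0.28 with a median of 0.01, and 36 genes were higher and 33 lower. Over all tested genes the median was -0.08 and 34.67% were higher. The 95% interval of the change lay within 1.5-fold in either direction for 65 of the 69 genes (94.2%) and for 61.31% of all tested genes. It did so for 51 of the 54 tested related genes of translation control described below (94.44%), so this is not particular to the 69 genes. The interval lay within 2-fold for all 69. All tested genes were not matched to the 69 for level, and the 69 were more abundant. Both oeDAZL libraries were above both control libraries for 18 genes and below them for 11, which is 42.03% of the genes where the background is 54.4% (16% above and 38.4% below). Scaling moved this balance. With median-of-ratios scaling 51 genes were higher and 18 lower, and 13 were higher and 1 lower at an unadjusted limma P of at most 0.05. Under that scaling 9.95% of all tested genes were higher and 9.16% lower at that P, and the median of all genes moved to -0.0026. With quantile normalization 41 were higher and 28 lower, with 4 higher and 4 lower at that P. The shares of all tested genes were then 8.4% higher and 9.08% lower.

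**Figure D1:**
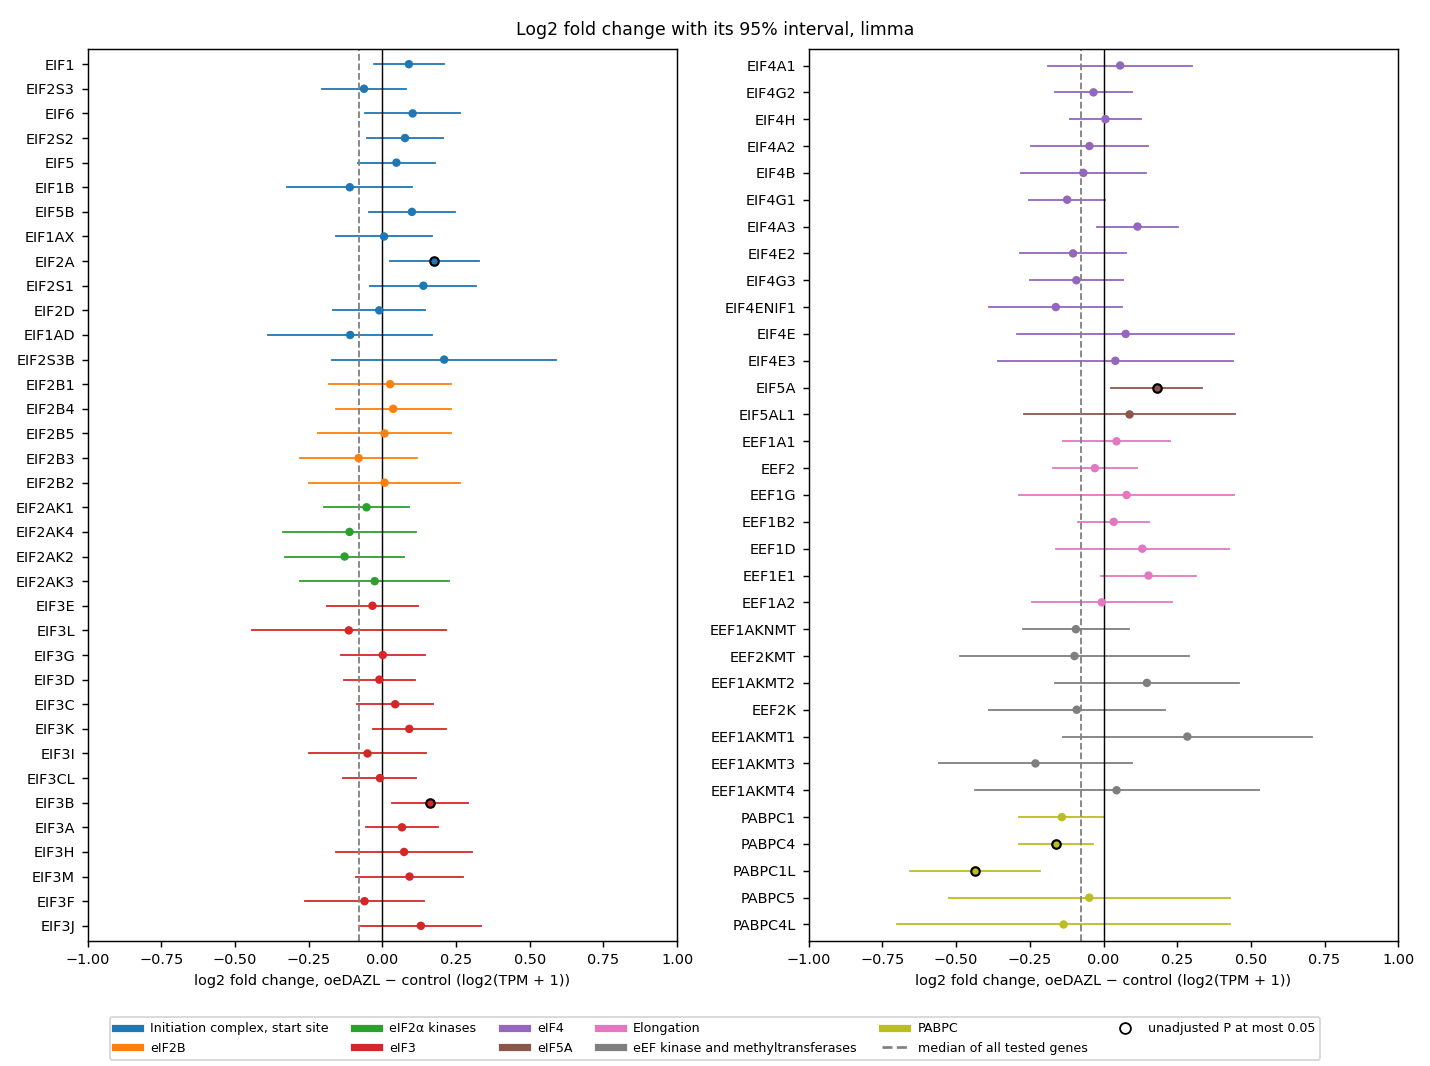
Log2 fold change (oeDAZL minus control, log2(TPM + 1)) of each tested gene with its 95% interval from limma, coloured by role. The dashed line is the median of all 16687 tested genes, and black rings mark the 5 genes with an unadjusted P of at most 0.05. All points lie between -0.44 and 0.28.

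PABPC1 is the main PABPC of somatic cells. It stood at 1410 and 1321 TPM in control and at 1209 and 1266 TPM in oeDAZL. Both oeDAZL libraries were below both control libraries, but the change of -0.14 (SE 0.06, 95% interval -0.29 to 0.0023) had a limma adjusted p of 0.254. Of its 50-base words 15.1% also occur in other annotated genes. PABPC4, also called inducible PABP, stood at 217 and 211 TPM in control and at 189 and 193 TPM in oeDAZL. Its groups did not overlap, and its change was -0.16 (SE 0.05), with a limma P of 0.0207 and an adjusted p of 0.182.

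PABPC1L, known as the embryonic PABP of oocytes and early embryos, had the lowest estimate among the 69 genes. The gene lies at chr20:44910060-44959035 of hg38 on the plus strand. It was measured at 139 and 117 TPM in control and at 91.1 and 96.7 TPM in oeDAZL, and both oeDAZL libraries were below both control libraries. The mean was 128 ± 15.3 TPM (SD, n = 2) in control and 93.9 ± 3.93 TPM in oeDAZL. The log2 fold change was -0.44 (SE 0.09, 95% interval -0.66 to -0.22), a ratio of 0.734, with a limma P of 0.00277 and an adjusted p of 0.104. The control libraries were further apart than the oeDAZL libraries, and the change was -0.32 without control replicate 1 and -0.56 without control replicate 2. The unadjusted P stayed at 0.05 or less under every alternative tried, and the adjusted p ran from 0.0378 without control replicate 2 to 0.404 without oeDAZL replicate 1.

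The other PABPC genes were scarce. PABPC5 was at 2.20 and 2.32 TPM in control and at 2.33 and 1.98 TPM in oeDAZL, and PABPC4L was between 1.25 and 1.92 TPM in the 4 libraries. PABPC3, an intronless copy of PABPC1 known from testis, was at 0.510 and 1.08 TPM in control and at 0.644 and 0.674 TPM in oeDAZL and was not tested. PABPC1L2A and PABPC1L2B were under 0.4 TPM in each library. All 5 tested PABPC genes had lower estimates in oeDAZL, beside 65.3% of all tested genes, and 3 of 5 did without oeDAZL replicate 2. With median-of-ratios scaling 4 of 5 did and with quantile normalization 3 of 5, while PABPC1, PABPC4 and PABPC1L were lower under both scalings, at -0.06, -0.08 and -0.35 with the first and at -0.20, -0.15 and -0.42 with the second. Of the pooled PABPC level, PABPC1 made up 79.7% and 79.9% in control and 80.9% and 81.2% in oeDAZL. PABPC1L made up 7.83% and 7.08% in control and 6.10% and 6.20% in oeDAZL. The share of PABPC1L was thus lower in both oeDAZL libraries than in both control libraries, and that of PABPC4, at 12.2% to 12.7%, overlapped.

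EIF4G1 is the scaffold of eIF4F and the partner that PABPC binds. It stood at 310 and 312 TPM in control and at 293 and 278 TPM in oeDAZL. Both oeDAZL libraries were below both control libraries, and the change of -0.12 (SE 0.05, 95% interval -0.25 to 0.01) had a limma P of 0.0575 and an adjusted p of 0.263. Under median-of-ratios scaling the change was -0.04 and with quantile normalization -0.15. EIF4G1 and PABPC1 therefore both had lower estimates in oeDAZL, at ratios of 0.918 and 0.906, each with an interval that reached 0. Both had an unadjusted P of at most 0.05 with quantile normalization.

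The largest EIF4G transcript pool was that of EIF4G2, also called DAP5, which lacks the part that binds eIF4E and PABPC. EIF4G2 held 68.8% to 71.3% of the pooled EIF4G level, EIF4G1 24.0% to 26.2% and EIF4G3 4.66% to 4.96%. EIF4G1 made up 26.2% and 25.6% of the pool in control and 25.5% and 24.0% in oeDAZL, so the oeDAZL shares were lower by a small margin. In the eIF4E family EIF4E2, also called 4EHP, a cap-binding protein known as a repressor, held 76.9% to 82.2% and EIF4E itself 14.6% to 19.7%. EIF4E was at 16.2 and 16.3 TPM in control and at 14.7 and 20.1 TPM in oeDAZL, so the oeDAZL libraries stood on both sides of the control. Of the 50-base words of its canonical transcript 20.9% also occur in the pseudogene EIF4EP2, which was itself listed at 26.5 to 27.9 TPM, and the part of this sharing in the level of EIF4E was not tested.

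The helicase gene EIF4A1 was the most abundant of the eIF4 group, at 1482 and 1274 TPM in control and at 1325 and 1541 TPM in oeDAZL. These ranges overlap throughout, and its change of 0.06 (SE 0.10, limma adjusted p = 0.786) turned to -0.05 without control replicate 2 and without oeDAZL replicate 2. All of its transcript is shared with other annotated genes, 91.7% of it with the overlapping entry ENSG00000264772, which was at 12.5 to 19.8 TPM. EIF4A1 held 73.0% to 75.6% of the pooled EIF4A level, EIF4A2 18.8% to 21.2% and EIF4A3, a part of the exon junction complex, 5.10% to 6.24%. EIF4ENIF1, which carries eIF4E to the nucleus and to P-bodies, had the lowest estimate of the group at -0.16, with 35.8 and 34.5 TPM in control and 33.7 and 29.1 TPM in oeDAZL. That estimate was -0.06 without oeDAZL replicate 2 and -0.26 without oeDAZL replicate 1. Of the 12 tested genes of the group 5 were higher and 7 lower, none at a P of at most 0.05, with 8 higher under median-of-ratios scaling and 4 higher under quantile normalization. EIF4E1B, an eIF4E of oocytes, was at 0.0857 and 0.110 TPM in control and listed at 0 in both oeDAZL libraries.

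The subunits of eIF3 form 1 complex, yet their transcripts spanned from 83.98 TPM for EIF3J, a loosely bound subunit, to 595.8 TPM for EIF3E, a ratio of 7.094. EIF3E was at 633 and 573 TPM in control and at 586 and 590 TPM in oeDAZL, so both oeDAZL libraries lay between the control libraries. EIF3B, the scaffold subunit at chr7:2354086-2380745 on the plus strand, was at 204 and 213 TPM in control and at 234 and 232 TPM in oeDAZL. Its groups did not overlap, and it was higher by 0.16 (SE 0.05, limma P of 0.0223 and adjusted p of 0.185), with estimates of 0.24 under median-of-ratios scaling and 0.17 under quantile normalization. It shares no 50-base word with another annotated gene.

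Of the 14 eIF3 genes, 8 were higher and 6 lower, 4 had both oeDAZL libraries above both control libraries, none had both below, and only EIF3B had a P of at most 0.05, where 16% of all tested genes lay above, 38.4% lay below and 20.2% had such a P. Their median change was 0.02. The 4 genes were EIF3A, EIF3B, EIF3C and EIF3K, of which the first 3 encode subunits that yeast eIF3 also has. With median-of-ratios scaling 13 of 14 were higher and with quantile normalization 8 of 14. Without control replicate 1, 13 of 14 were higher, and without oeDAZL replicate 2, 6 of 14. The balance of directions in eIF3 therefore moved with median-of-ratios scaling and with single libraries. EIF3L was at 443 TPM in control replicate 1 and between 327 and 361 TPM in the other 3 libraries, and 56.6% of its transcript is shared with other entries. EIF3C and EIF3CL share 98.8% and 98.7% of their words and were listed at like levels, 239 to 253 TPM and 224 to 231 TPM, so the split between these near-identical copies is uncertain.

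Among the 13 genes of the initiation complex, which cover eIF2, the choice of the start codon and the joining of the ribosomal subunits, 9 were higher and 4 lower, and 8 had both oeDAZL libraries above both control libraries with none below, beside 16% above and 38.4% below over all tested genes. Their median change was 0.08, against -0.08 for all tested genes. With median-of-ratios scaling 11 of 13 were higher and with quantile normalization 10 of 13. The 8 genes without overlap include EIF2S3B and EIF6 by narrow margins. For EIF2S3B the lower oeDAZL library stood at 8.49 TPM and the higher control library at 8.39 TPM. For EIF6 these values were 166.7 and 166.3 TPM. EIF1, which keeps the choice of the start codon stringent, was the most abundant at 404 and 395 TPM in control and 428 and 422 TPM in oeDAZL. The groups did not overlap, and the change was 0.09 (SE 0.05, limma adjusted p = 0.355). EIF2A, a separate factor that is not a subunit of eIF2 and is linked to initiation at non-AUG codons, was at 51.1 and 51.7 TPM in control and at 57.6 and 58.7 TPM in oeDAZL. The control replicates differed from each other far less than from the oeDAZL libraries. Its change was 0.18 (SE 0.06, limma P of 0.0294 and adjusted p of 0.204), and 0.26 and 0.22 with median-of-ratios scaling and quantile normalization.

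The 3 subunits of eIF2 had a median of 145 TPM, against 227.8 TPM for the 14 eIF3 genes. EIF2S1, the α subunit that stress kinases phosphorylate, had a mean of 49 TPM and EIF2S3 of 195.6 TPM. EIF2S1 stood at 44.4 and 48.8 TPM in control and at 51.6 and 51.1 TPM in oeDAZL, with a limma adjusted p of 0.345. EIF2S3B was at 8.35 and 8.39 TPM in control and at 11.4 and 8.49 TPM in oeDAZL, so its estimate of 0.21 came with 1 oeDAZL library above the other 3. It shares 25.2% of its words with EIF2S3. EIF1B held 21.0% and 19.1% of the pooled EIF1 and EIF1B level in control and 18.4% and 17.4% in oeDAZL, lower in both oeDAZL libraries.

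The exchange factor eIF2B, which recharges eIF2 with GTP, and the kinases that block it by phosphorylating eIF2α showed no call. The 5 eIF2B genes had means of 16.11 TPM (EIF2B2) to 59.41 TPM (EIF2B1), and their changes ran from -0.08 to 0.04. EIF2B1 was at 61.5 and 56.2 TPM in control and at 56.5 and 63.4 TPM in oeDAZL, which is full overlap. Of the 4 kinases, the heme-regulated EIF2AK1 was the most abundant at 105 and 102 TPM in control and at 102 and 97.4 TPM in oeDAZL. The double-stranded RNA sensor EIF2AK2 was at 22.1 and 22.2 TPM in control and at 20.5 and 19.8 TPM in oeDAZL, with no overlap and a limma adjusted p of 0.431. All 4 kinases had lower estimates as deposited, from -0.13 to -0.03, whereas 2 of 4 were higher with median-of-ratios scaling and 1 of 4 with quantile normalization.

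EIF5A, the factor that carries the amino acid hypusine and helps ribosomes past stretches such as polyproline, was among the 3 genes higher at a P of at most 0.05. It lies at chr17:7306999-7312463 on the plus strand. Its levels were 884 and 976 TPM in control and 1043 and 1062 TPM in oeDAZL, with both oeDAZL libraries above both control libraries. The change was 0.18 (SE 0.06, 95% interval 0.03 to 0.33), a ratio of 1.132, with a limma P of 0.029 and an adjusted p of 0.203. The change was 0.11 without control replicate 1 and 0.25 without control replicate 2, the latter with a limma adjusted p of 0.0484. EIF5A shares 38.7% of its words with other entries, mostly EIF5AL1, which was at 5.23 to 6.32 TPM, and it held 99.3% to 99.4% of the pooled level. EIF5A2 was between 0.652 and 0.863 TPM and was not tested. The enzymes that make hypusine, DHPS and DOHH, differed by -0.0027 and 0.0086, with limma adjusted p of 0.992 and 0.976.

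EEF1A1, EEF2 and EEF1G had the highest means of the 69 genes, and none of the 7 elongation factor genes had a P of at most 0.05. EEF1A1 (chr6:73489308-73525587, minus strand) was at 7581 and 6896 TPM in control and at 7682 and 7233 TPM in oeDAZL, with a change of 0.04 (SE 0.08, limma adjusted p = 0.775). The groups overlapped. Its estimate was -0.04 with quantile normalization. EEF2 was at 2131 and 1988 TPM in control and at 1996 and 2038 TPM in oeDAZL, again with overlap. EEF1A2, the form of muscle and neurons, held 0.245% to 0.277% of the pooled eEF1A level. EEF1A1 shares 37.2% of its words with 28 other genes, and the entry EEF1A1P5 was at 768 to 803 TPM.

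The subunits of the exchange factor eEF1B differed in their stability across libraries. EEF1B2 stayed between 690 and 721 TPM. EEF1G was at 1330 and 1843 TPM in control and at 1564 and 1748 TPM in oeDAZL, so both oeDAZL libraries lay between the controls. Its transcript shares 96.1% of its words with the overlapping entry ENSG00000255508, listed at 256 and 24.9 TPM in control and at 210 and 163 TPM in oeDAZL. That entry was highest in the library where EEF1G was lowest and lowest where EEF1G was highest, and the part of this split in the spread of EEF1G was not tested. EEF1E1, a subunit of the aminoacyl-tRNA synthetase complex that carries an eEF1 name, was at 39.1 and 39.8 TPM in control and at 44.2 and 43.7 TPM in oeDAZL, higher in both oeDAZL libraries by 0.15 (SE 0.07, limma adjusted p = 0.27).

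The 7 genes that modify elongation factors, the kinase of eEF2 and the methyltransferases of eEF1A and eEF2, were measured at low levels, with a summed level of 79.64 to 84.02 TPM, and their changes ran from -0.23 to 0.28. EEF1AKMT1, which methylates lysine in eEF1A, was at 6.32 and 6.72 TPM in control and at 9.60 and 6.91 TPM in oeDAZL. It had the highest estimate of the 69 genes at 0.28 (SE 0.17, limma adjusted p = 0.402), with oeDAZL replicate 1 standing above the other 3 libraries, and the estimate was 0.07 without that library. EEF1AKMT3 was at 7.13 and 7.83 TPM in control and at 5.93 and 6.53 TPM in oeDAZL, lower in both, with a change of -0.23 (SE 0.14, limma adjusted p = 0.384). EEF1AKNMT, the most abundant of the 7, was at 32.5 and 31.3 TPM in control and at 29.8 TPM in both oeDAZL libraries. In this group 3 were higher, 4 lower and none had a P of at most 0.05.

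Genes with the pyrimidine tract at their start had a higher median level than the others and a median change near 0 like theirs. The 13 genes had a median of 242.2 TPM and a range from 9.146 TPM (EIF2S3B) to 7348 TPM (EEF1A1), against a median of 58.35 TPM for the 40 tested genes with other starts. Their changes had a median of -0.01 and ran from -0.07 to 0.21, against a median of 0.02 and a range from -0.44 to 0.18 in the 40. One of the 13, EIF2A, had a P of at most 0.05, which is 1 higher and 0 lower, against 2 higher and 1 lower in the 40. Both oeDAZL libraries were above both control libraries for 4 of the 13 and below for 0, against 11 and 7 of the 40. Of all 790 tested entries with such a start, 128 lay above and 307 below, 44 were higher and 131 lower at a P of at most 0.05, and the median change was -0.06. Over all 16687 tested genes 16% lay above and 38.4% below, and 5.02% were higher and 15.2% lower at that limma P. Translation itself was not measured.

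Of 57 related genes of translation control, 54 were tested. EIF4EBP3, at 0.955 and 0.945 TPM in control and 0.793 and 0.745 TPM in oeDAZL, and DEPTOR, at 0.441 to 0.791 TPM, were under the 1 TPM filter, and 1 name was not analysed here. Of the 54, 6 were higher and 6 lower at an unadjusted limma P of at most 0.05, which is 22.22% beside the background of 20.2%. None had an adjusted p under 0.05. Among the partners of PABP and eIF4E, PAIP2, a PABPC-interacting repressor, was at 123.3 and 130.5 TPM in control and at 145 and 146 TPM in oeDAZL, higher by 0.19 (SE 0.06, limma P of 0.0142 and adjusted p of 0.163). LARP1, which binds TOP mRNAs, differed by -0.14 (SE 0.06, limma adjusted p = 0.226), at 154 and 148 TPM in control and 138 and 135 TPM in oeDAZL. The stimulator PAIP1 differed by 0.03 and the cap repressor EIF4EBP2 by -0.01, while EIF4EBP1 stood at 92.9 and 96.5 TPM in control and at 86.6 and 85.6 TPM in oeDAZL with a limma P of 0.0558.

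In mTOR and cap signalling, TSC2, which restrains mTORC1, had the lowest estimate of the related genes. It was at 94.7 and 79.0 TPM in control and at 55.5 and 59.9 TPM in oeDAZL, a change of -0.58 (SE 0.10, limma P of 0.00103 and adjusted p of 0.0896). MLST8, a subunit of mTOR complexes, differed by -0.30 (SE 0.10, limma adjusted p = 0.185), MTOR itself differed by 0.08 with a limma adjusted p of 0.542, and RPS6 by -0.0033. MKNK2, which phosphorylates eIF4E, was higher by 0.27 (SE 0.06), at 70.4 and 70.3 TPM in control and at 84.6 and 86.1 TPM in oeDAZL, and PDCD4, which inhibits eIF4A, was higher by 0.24 (SE 0.08). Of the 13 tested genes of this list, 2 were higher and 2 lower at a P of at most 0.05, or 30.77% beside 20.2% of all tested genes (5.02% higher and 15.2% lower).

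In termination and recycling, 7 of 8 genes had higher estimates, beside 34.67% of all tested genes. At an unadjusted limma P of at most 0.05, 2 were higher and 0 lower, or 25% beside 20.2% of all tested genes. MCTS1 had the lower estimate, at -0.14 (SE 0.11, limma adjusted p = 0.499). It was at 10.7 and 10.5 TPM in control and at 9.79 and 9.23 TPM in oeDAZL. DENR, which recycles small subunits, was at 96.8 and 104 TPM in control and at 121 and 125 TPM in oeDAZL, higher by 0.30 (SE 0.06, limma P of 0.00278 and adjusted p of 0.104). GSPT1, the release factor eRF3a, was higher by 0.23 (SE 0.07, limma adjusted p = 0.163), and ETF1, the release factor eRF1, differed by 0.11 with an adjusted p of 0.328. In the mitochondrial list TUFM, the elongation factor of mitochondria, was higher by 0.16 (SE 0.06), while MTIF3, MTRF1 and MRRF, which act in initiation, release and ribosome recycling there, had estimates of -0.35, -0.34 and -0.46. Of its 9 tested genes 1 was higher and 3 were lower at a P of at most 0.05, these 4 included, which is 44.44% beside the same 20.2%. In the eIF2α pathway no gene had a P of at most 0.05, and ATF4, whose translation rises when eIF2 is phosphorylated, was at 557 and 588 TPM in control and at 532 and 546 TPM in oeDAZL. Mitochondrially encoded transcripts took 12.5% and 13.3% of the TPM in control and 14.1% and 13.9% in oeDAZL.

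**Figure D2:**
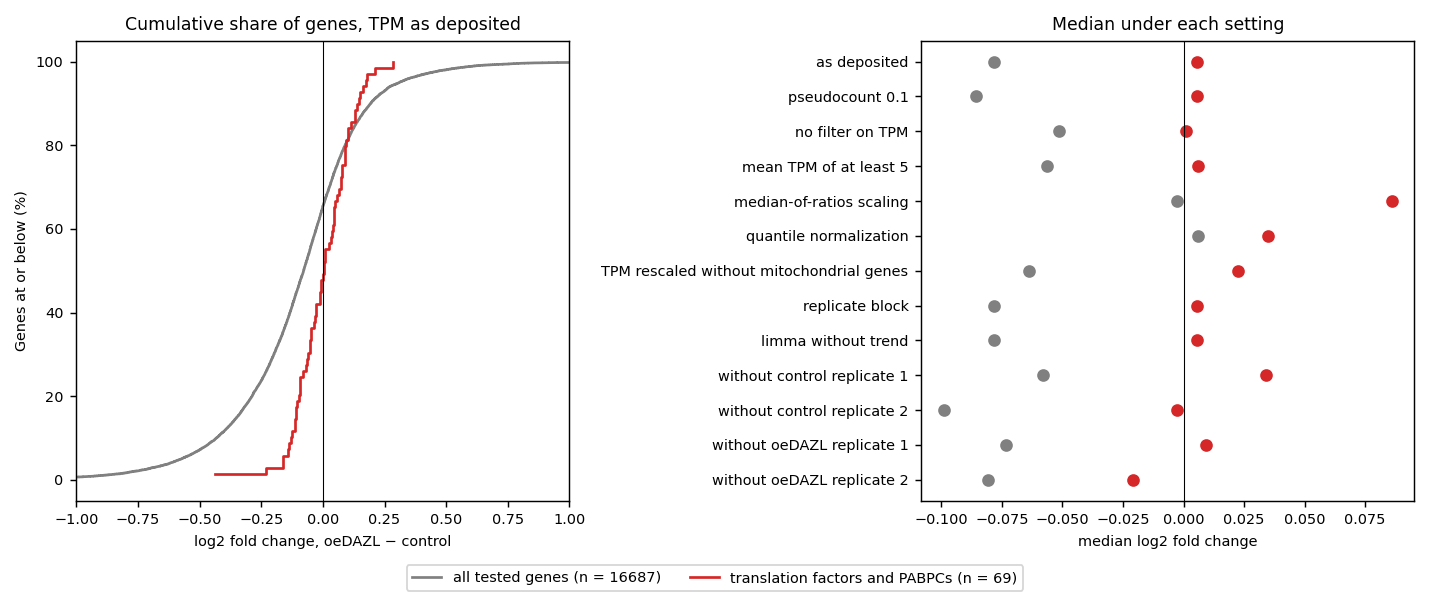
Left, cumulative share of genes (%) against log2 fold change for the 69 translation factor and PABPC genes (red) and all 16687 tested genes (grey), TPM as deposited. Right, median log2 fold change of both sets under each alternative: the red median lies above the grey one in every line, by 0.03 to 0.10, while both move with the scaling.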

How the data were processed

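RNA sequencing of 2 control and 2 oeDAZL libraries was analysed, and the 6 miRNA libraries of the series were not analysed here. The authors deposited TPM per gene in 1 table that keeps the libraries separate. Reads were trimmed with Trim Galore (0.6.4 in the submitters' notes, whereas the study's methods give another version) and mapped uniquely to hg38 with HISAT2 2.1.0 and quantified with StringTie 2.1.4. The annotation is not given in the sources used here. TPM sums to the same total in each library and keeps no read depth, so depth is unknown, counting error cannot be given, and 0 says only how a gene is listed.

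From these values log2(TPM + 1) was computed, 45 chromosome Y copies and 18 repeated entries were left out, and limma 3.58.1 (R 4.3.3; lmFit and eBayes, trend on) was run without covariates on 16687 genes, those whose TPM averaged 1 or more across all 4 libraries, with Benjamini-Hochberg adjustment over all of them. Fold changes on this scale understate those of genes at low TPM. With 2 libraries a group, 0.333 is the smallest p of an exact permutation test, which was not used. The study applied DESeq2 to counts, which were not used here. The procedure was also run on simulated data with the same noise for every gene. That setting differs from the spread of these data, and no result here rests on it.

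The genes, the lists and the rule for naming genes were chosen with earlier results of these data known. The rule named DAZL, PABPC1, EIF4G1, the most abundant gene of each role, every tested gene with an unadjusted P of at most 0.05, the 5 highest and 5 lowest estimates, the sets of paralogs, and related genes with a P of at most 0.05. Any other gene given with values was chosen after its values were seen. Gene positions and the 50-base words shared between canonical transcripts and the annotated transcripts of other genes came from GENCODE 44 on hg38, and start sequences from RefSeq (GRCh38.p14). The study's methods state that only uniquely mapped reads were kept. EIF3C and EIF3CL, which share almost all of their words, were nevertheless listed at 239 to 253 TPM and 224 to 231 TPM. How shared reads were counted was not tested, so genes with near-identical copies are uncertain.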

Additional observations from a re-analysis of the deposited data

How the results depend on the processing

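The counts over the translation factors and PABPCs, the related genes and all genes, their medians, and the estimates of DAZL and 18 translation factor and PABPC genes were recomputed with a pseudocount of 0.1, no filter on TPM, a filter at a mean of 5 TPM, quantile normalization, median-of-ratios scaling, TPM rescaled without mitochondrial genes, the replicate number as a block, limma without trend, and each library left out in turn, where the lone library of a group was assumed to vary like the other group. No alternative gave a 2-fold call among the translation factors and PABPCs. Their calls higher at an unadjusted P of at most 0.05, 3 as deposited, numbered 13 with median-of-ratios scaling, 0 without trend and 1 to 7 with a library left out, and the calls lower, 2 as deposited, numbered 1 under median-of-ratios scaling, 4 under quantile normalization, 1 without trend and 1 to 9 with a library left out. Adjusted p-values under 0.05 numbered 0 to 3 with a library left out, the 3 without control replicate 2. Genes with both oeDAZL libraries above both control libraries, 18 as deposited, numbered 30 with median-of-ratios scaling and 24 to 30 with a library left out, and those below, 11 as deposited, numbered 5 under median-of-ratios scaling, 6 under quantile normalization, and 21 to 24 with a library left out. Fewer libraries make such an arrangement easier to meet. The share of all genes in such an arrangement was computed only for the values as deposited, so these counts have no background.

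Over all tested genes, 838 higher and 2530 lower calls at that P became 1660 and 1528 with median-of-ratios scaling and 1402 and 1515 with quantile normalization, and 357 to 1341 and 1226 to 3295 with a library left out. Related genes had 6 calls each way, against 13 higher with median-of-ratios scaling, 2 higher without trend, 10 lower without a filter, and 3 to 7 higher and 2 to 9 lower with a library left out. The median log2 fold change of the translation factors and PABPCs was 0.0350 under quantile normalization and 0.0861 under median-of-ratios scaling, and it was -0.0208 to 0.0339 with a library left out. That of all genes was -0.0514 without a filter, -0.0565 at the filter of 5 TPM, 0.0061 under quantile normalization, -0.0026 under median-of-ratios scaling, and -0.0991 to -0.0580 with a library left out. The summed TPM of the group, oeDAZL minus control, differed by 1637 with median-of-ratios scaling against 254.7 as deposited, by 703.6 without control replicate 1 and by -194.1 without control replicate 2, and by 152.5 without oeDAZL replicate 2. The cause of these shifts was not tested.

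Estimates changed sign for EEF1A1 with quantile normalization (-0.0419) and without control replicate 2 (-0.0244, the lowest of -0.0244 to 0.1123 with a library left out), for EIF2AK1 with median-of-ratios scaling (0.029), for EIF2B1 without control replicate 2 (-0.0382) and without oeDAZL replicate 2 (-0.0559, of a range to 0.1079), for EIF3E with median-of-ratios scaling (0.0499) and without control replicate 1 (0.0386, of a range from -0.1063), and for EIF4A1 without control replicate 2 (-0.0523) and without oeDAZL replicate 2 (-0.0523, of a range to 0.1651). The same alternatives, extended after seeing the data to the 12 related genes with a P of at most 0.05, reversed none of them. TSC2, DENR, MKNK2 and MTIF3 kept that P under all 12 settings. The other 8 had a P above 0.05 without oeDAZL replicate 1, from 0.0518 for MRRF to 0.29 for TUFM. LARP1 kept it under 5, with an estimate of -0.06 under median-of-ratios scaling, and MLST8 under 8, with -0.19 without oeDAZL replicate 1. Without control replicate 2 the adjusted p was 0.0361 for TSC2 and 0.0497 for DENR. Other genes given with values were not recomputed one by one. With the replicate number as a block, 1 translation factor gene was higher, EIF5A, and 1 lower, PABPC1L, at that P. Deviations of same-numbered libraries correlated at -0.104 over genes. With 2 libraries a group this value cannot show or exclude a shared culture or batch, and no pairing was assumed. TPM gives no depth, which limits what can be said of the genes listed near 0.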

Other observations

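Entries that the naming rule left out as pseudogenes carried sizeable TPM in some cases, named here because their values were seen. EEF1A1P5 was at 768 and 803 TPM in control and at 786 and 792 TPM in oeDAZL, a level above that of most translation factors. EEF1B2P3 was at 35.6 and 39.1 TPM in control and at 39.8 and 44.6 TPM in oeDAZL. EIF4EP2 was at 27.2 and 26.5 TPM in control and at 26.5 and 27.9 TPM in oeDAZL, above EIF4E itself in each library. EIF2S2P4, which shares 22.2% of the 50-base words of EIF2S2, was at 15.8 and 16.1 TPM in control and at 24.2 and 21.4 TPM in oeDAZL, higher in both oeDAZL libraries. EIF1AXP1 was between 27.4 and 30.8 TPM. In the same limma fit over all genes EIF2S2P4 had a log2 fold change of 0.49 (SE 0.10, adjusted p of 0.0994), and EEF1A1P5, EEF1B2P3, EIF4EP2 and EIF1AXP1 had unadjusted P-values of 0.896, 0.0992, 0.838 and 0.643.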
